A study of Homo sapiens with 1 sample.

Results

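The miR-548 family was read in DLD-1, a colorectal carcinoma cell line, on 1 single-colour Agilent miRNA array. The cells had received a control siRNA with no intended target (the si-NC group, n = 1 array). The members were all array miRNAs whose name starts with miR-548, whatever the letter, copy number or arm, and 70 of the 2549 miRNAs on the array had such a name. The study proposed that circLONP2, a circular RNA of the LONP2 gene, drives metastasis of colorectal carcinoma. As a part of this it read miRNAs after knockdown and after overexpression of circLONP2, and those arrays were not analysed here. There was thus no group to compare with, no biological replicate and no p-value, and every error below is technical, taken from replicate spots (SD) or computed by the scanner software.

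MicroRNAs (miRNAs) are short RNAs cut from hairpin precursors, and a hairpin can give 1 mature miRNA from its 5p arm and 1 from its 3p arm. Bases 2 to 8 of a miRNA, the seed, do most of the pairing with target messenger RNAs. The miR-548 hairpins are found in primates and derive from MADE1, a short palindromic DNA transposon whose copies are spread over the genome. A transcribed copy folds back on itself, since its ends are inverted repeats, and this is how the element can supply hairpins. RefSeq on GRCh38.p14 listed 73 MIR548 genes, on 22 chromosomes. Of these, 47 lay within the span of a protein-coding gene and another 4 within that of a long noncoding RNA only. Among the detected members, MIR548AM lay within CTPS2, MIR548AU within PHF2, MIR548E within SHOC2 and MIR548V within MTUS1, while MIR548AD and MIR548AY lay within no such gene. Exon or intron was not assigned, and the array itself was designed on the hg19 build.

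Mature sequences could be matched by name in RefSeq (GRCh38.p14) for 49 of the 70 members, which is 70% and includes 3 of the 11 members called detected. A check of base composition against detection needs a sequence for at least 80% of the members, so it was void and no such relation is given. The sequences below are shown because they carry the contrasts of the later paragraphs, in lower case with the seed in capitals, 5′ to 3′. The first 3 belong to detected members:
miR-548b-3p: cAAGAACCucaguugcuuuugu
miR-548j-5p: aAAAGUAAuugcggucuuuggu
miR-548k: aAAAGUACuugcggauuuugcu
They lie at chr6:119069062-119069083, chr22:26555274-26555295 and chr11:70283986-70284007 on GRCh38.p14, on the minus, minus and plus strand, within the spans of FAM184A, TPST2 and PPFIA1. The next 7 are undetected arms whose partner arm was detected:
miR-548b-5p: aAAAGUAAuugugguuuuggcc
miR-548j-3p: cAAAAACUgcauuacuuuugc
miR-548ad-3p: gAAAACGAcaaugacuuuugca
miR-548am-3p: cAAAAACUgcaguuacuuuugu
miR-548au-3p: uGGCAGUUacuuuugcaccag
miR-548ay-3p: cAAAACCGcgauuacucuugca
miR-548e-5p: cAAAAGCAaucgcgguuuuugc
The last 2 are undetected members whose whole sequence is the beginning of a detected one, miR-548ap-5p of miR-548j-5p and miR-548av-5p of miR-548k:
miR-548ap-5p: aAAAGUAAuugcggucuuu
miR-548av-5p: aAAAGUACuugcggauuu

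The 49 sequences were 18 to 23 bases long, with a median of 22. Their share of G and C ran from 15.8% to 54.5% with a median of 34.8%, against a median of 52.2% over 2199 other miRNAs with a sequence. The heptamer GUAAUUG was found in 11 of the 49, all of them 5p, and in 1 of the 2199 other miRNAs (0.0455%). Its reverse complement CAAUUAC was found in 6 of the 49, all of them 3p, and in 3 of the others (0.136%). The octamer AAAAGUAA was found in 14 of the 49, all 5p, of which 10 begin with it, and in 0 of the others. The heptamer ACUUUUG was found in 12, all 3p, and in 7 of the others (0.318%). Motifs that overlap share bases, as GUAAUUG and AAAAGUAA do, and each was searched as written in the mature RNA. For 9 names with a sequence for both arms, the longest stretch of the 5p arm that is exactly complementary to the 3p arm had a median of 9 bases (range 5 to 20). Over 671 other pairs of arms the median was 7 (range 3 to 22). The longest in the family was that of miR-548bb, and the shortest that of miR-548b.

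The array carried 20 spots for every member, spread over 173 probes. There were 46 members with 2 probes, 12 with 3, 11 with 4 and 1, miR-548f-3p, with a single probe, so that a probe had between 5 and 20 spots. No probe was listed under more than 1 miRNA name. None of the family's spots was saturated, and 1000 negative control spots gave a 99th percentile of 16.1 (background-subtracted intensity) with 1.40% of them flagged well above background. As a check of the cell line, 10 of 10 miRNAs listed for colon epithelium were called detected, with total signals from 52.2 to 23842 (summed 46203, more than 50% of it from miR-21-5p). The list includes miR-21-5p, miR-31-5p, miR-203a-3p and miR-375, and how specific its miRNAs are to colon epithelium was not tested. Of 13 markers of other tissues 5 were called detected, with total signals from 21.5 to 695 (summed 888). Sums of different probes do not compare as amounts, and the ranges of both lists overlap. The 5 were led by miR-142-3p of blood cells (695) and miR-126-3p of endothelium (123), and the other 8 were at the value given to undetected miRNAs, 0.1. Their part in the signals of the family was not tested.

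The first question was how much of the family gave a measurable signal. The scanner software called 11 of the 70 members detected, which is 15.7%, against 44.4% of all 2549 miRNAs. A probe counts towards detection when its signal reaches 3 times its error, and the total gene signal, the value given for a miRNA, is the sum over such probes. That sum matched within 0.1% for all 11 detected members. Of the 1400 spots of the family 160 were well above background, or 11.4%, against 34.9% of the spots of other miRNAs. After background subtraction 60.4% of the family's spots had an intensity under 0, against 30.8% of all miRNA spots. With no replicate array these shares are descriptions of this array and were not tested against each other.

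**Figure D1:**
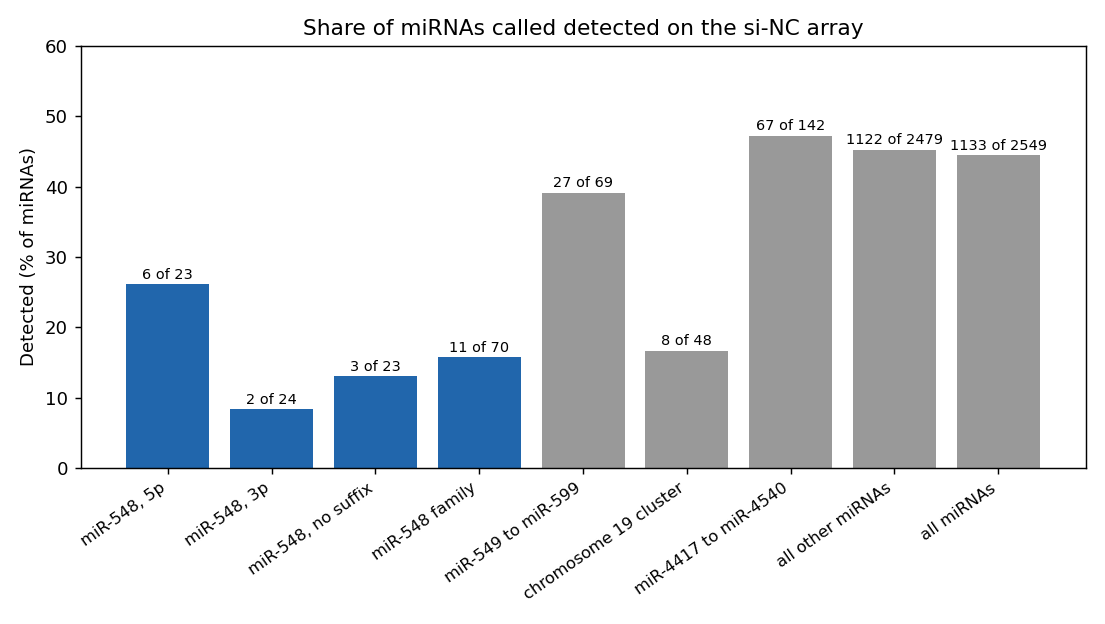
Share of miRNAs called detected by the scanner software on the si-NC array (percent of the miRNAs in each set, counts above the bars). Blue bars are the miR-548 family by the arm in the name and as a whole, grey bars are other sets, which overlap with the last 2 bars. The family reaches 15.7% and its 3p members 8.33%, against 44.4% of all miRNAs.

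Other sets of miRNAs put that share in context. Among miRNAs numbered miR-549 to miR-599, the family's neighbours in the naming order, 27 of 69 were called detected (39.1%). This set is not wholly unrelated to the family. It holds the detected miR-559, miR-570-3p and miR-579-3p, which share a seed with a member or are placed with MADE1. In the primate-specific cluster of chromosome 19, which is best known from placenta, it was 8 of 48 (16.7%). In miR-4417 to miR-4540, a stretch of late-named miRNAs, it was 67 of 142 (47.2%). The family and the chromosome 19 cluster thus had the 2 lowest shares of these sets, and the differences were not tested. Members with a total signal of 5 or more made up 10.0% of the family and 4.17% of that cluster.

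Detection depends on the rule, and the other rules were applied to the family and to all miRNAs alike. When at least 50% of the spots of 1 probe had to be well above background, 9 of 70 members passed (12.9%), against 37.9% of all miRNAs. When the median spot of 1 probe had to lie above the 99th percentile of negative controls, 9 passed (12.9%), against 34.8%. With a total signal of 5 or more asked for in addition to the flag, 7 passed (10.0%), against 33.3%, and with every probe above background 6 passed (8.57%), against 29.3%. The 6 that passed all rules were miR-548aa, miR-548ad-5p, miR-548am-5p, miR-548ay-5p, miR-548d-5p and miR-548e-3p. Of these, miR-548e-3p passed close to the limits. Its dimmer probe had 50% of its spots above background, and its total signal was 5.20. The members lost under the first 2 rules were miR-548j-5p and miR-548k in both cases.

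The total gene signals of the detected members formed a graded series from 58.6 down to 1.36. In 5 of the 11, all 20 spots were well above background, and 4 of these 5 carry the 5p suffix. The 5 are 7.14% of the family, against 25.2% of all miRNAs with every spot above background. The brightest was miR-548d-5p with a total gene signal of 58.6 ± 3.10 (error from the scanner software). It ranked 264 by total gene signal among all 1133 detected miRNAs. Its 4 probes had mean spot intensities of 86.7 ± 6.54, 144 ± 7.82, 196 ± 5.75 and 213 ± 7.75 (SD, 5 spots each), and its lowest spot was at 78.1.

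The next, miR-548am-5p, had a total gene signal of 42.6 ± 2.27. Its 4 probes had means of 71.9 ± 5.85, 105 ± 5.35, 127 ± 5.70 and 161 ± 5.27 (SD, 5 spots each). All 8 probes of these first 2 members thus lay above the negative control percentile of 16.1, and spots of different probes of a member did not overlap except for the 2 brightest probes of miR-548d-5p.

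Total gene signals of 22.9 ± 1.94 for miR-548ay-5p and 20.4 ± 1.68 for miR-548ad-5p came from 2 probes each. Those of miR-548ay-5p had means of 31.2 ± 2.50 (SD, 9 spots) and 94.2 ± 5.27 (10 spots). Those of miR-548ad-5p had means of 35.4 ± 3.58 (10 spots) and 75.9 ± 3.89 (9 spots). For both members the spots of the dimmer probe all lay under those of the brighter one, and all lay above the negative control percentile. Signals of different probes do not compare as amounts of RNA, so the order of members is one of signal only.

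The fifth member with every spot above background was miR-548aa, whose name gives no arm. Its total gene signal was 9.15 ± 0.968, from probes with means of 15.8 ± 2.0 (SD, 9 spots) and 34.2 ± 3.99 (10 spots). The mean of the dimmer probe lay under the negative control percentile of 16.1. In RefSeq the genes MIR548AA1 and MIR548D1 cover the same 97 bases, within the span of ATAD2, and so do MIR548AA2 and MIR548D2, within that of PITPNC1. MIR548C and MIR548Z, within RASSF3, also cover the same 97 bases. The strand of these genes was not read, so shared bases do not say whether they give the same hairpin.

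**Figure D2:**
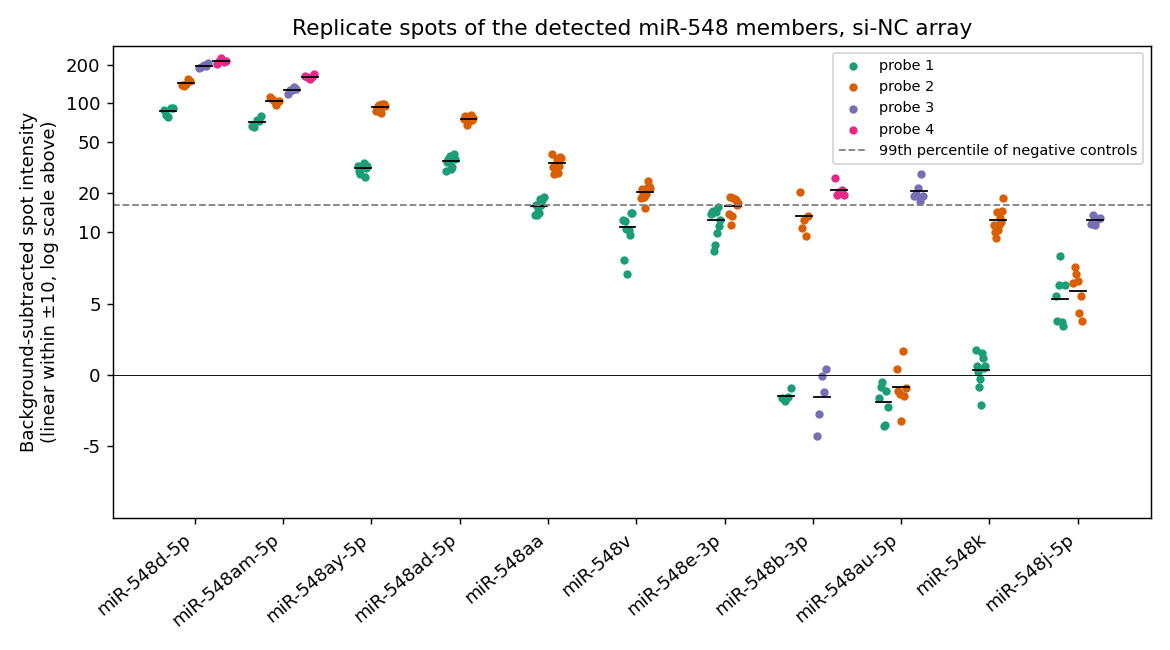
Background-subtracted intensity of each replicate spot (vertical axis, linear within ±10 and logarithmic above) for the 11 detected members of the family on the si-NC array, from the highest to the lowest total gene signal. Colours are probes in the order of their names, black bars are probe means, outlier spots are left out, and the dashed line is the 99th percentile of negative control spots (16.1). The 4 members on the left lie wholly above the line, and miR-548k and miR-548j-5p have probe means of at most 12.5, under it.

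The other 6 detected members had fewer spots above background and lower total gene signals. The total gene signal of miR-548v was 5.77 ± 0.802, with 13 of 20 spots well above background and probe means of 10.9 ± 2.48 (SD, 9 spots) and 20.6 ± 2.75 (10 spots). That of miR-548e-3p was 5.20 ± 0.773, with 14 such spots and probe means of 12.4 ± 2.52 (10 spots) and 16.1 ± 2.69 (9 spots). In both, each of the 2 probes passed 3 times its error.

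In the last 4, part of the probes did not reach 3 times their error. For miR-548b-3p, at 3.17 ± 0.411, the 4 probes had means of -1.46 ± 0.368 (SD, 4 spots), 13.3 ± 4.19, -1.57 ± 1.94 and 21.4 ± 2.85 (5 spots each), so that 2 probes made up the whole signal. For miR-548au-5p, at 2.30 ± 0.369, a single probe with a mean of 20.9 ± 3.90 (SD, 6 spots) carried the signal, while the other 2 had means of -1.91 ± 1.25 and -0.842 ± 1.56 (7 spots each). For miR-548k, at 2.29 ± 0.532, one probe had a mean of 12.5 ± 2.71 and the other of 0.331 ± 1.16 (10 spots each). For miR-548j-5p, at 1.36 ± 0.317, the probe that counted had a mean of 12.4 ± 0.916 (SD, 5 spots), and the other 2 had means of 5.32 ± 1.81 and 5.90 ± 1.41 (7 spots each), under 3 times their error. Of the probes that carried these 4 members, those of miR-548k and miR-548j-5p and the dimmer one of miR-548b-3p had means under the negative control percentile.

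Probe support can be summed over the 11 detected members. They had 30 probes, of which 23 passed 3 times their error. In 7 members every probe did so, and in 3 (miR-548au-5p, miR-548k and miR-548j-5p) a single one did. At least 2 probes with 50% or more of their spots above background were present for 6 members. No share over all miRNAs is given for these counts, so they do not say whether probe support in the family was low or ordinary. Under the related rule above, every probe above background, 8.57% of members passed, against 29.3% of all miRNAs. In all 11 the probe with the highest number in its name was the brightest, which held for 705 of 1122 other detected miRNAs with several probes (62.8%). What distinguishes these probes is not given in the files. The largest differences between probes above background were 1.59 ± 0.05 on the log2 scale (SE from replicate spots) for miR-548ay-5p, 1.30 ± 0.05 for miR-548d-5p and 1.17 ± 0.06 for miR-548am-5p, all many times their SE.

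The spread between replicate spots was taken as the SD over the mean (CV). In the family 19 probes had at least 50% of their spots above background, and their median CV was 7.99%, against 8.73% over the 1940 such probes of all miRNAs. The error of the total gene signal ran from 5.30% to 23.4% of its value over the 11 members, with a median of 12.9%. The median total gene signal of the 11 was 5.77, against 12.5 over all detected miRNAs, and 4 of the 11 lay over the latter. A total signal under 5 was found for 4 of the 11 (36.4%) and for 284 of all 1133 (25.1%).

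The arms were counted next. The -5p suffix was carried by 23 members, of which 6 were called detected (26.1%, against 49.1% of all miRNAs named 5p). The -3p suffix was carried by 24, of which 2 were called detected (8.33%, against 43.8%). Of 23 members with no arm in the name 3 were called detected (against 40.3%). Spots well above background numbered 92 of 460 for 5p, 26 of 480 for 3p (5.42%) and 42 of 460 without suffix (9.13%). Over all other miRNAs, whatever the arm, the share of such spots was 34.9%. The 4 members of a named arm with all 20 spots above background were all 5p, and total gene signals of detected members ran from 1.36 to 58.6 for 5p and from 3.17 to 5.20 for 3p.

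The position of the mature sequence within its RefSeq gene gave an arm to 18 of the 23 members without suffix, 13 of them 5p and 5 of them 3p. The same placement matched the suffix for all 31 members on which it could be checked. With these added, 7 of 36 members on the 5p side were detected (miR-548k is the addition) and 2 of 29 on the 3p side. Other miRNAs were not placed in this way, so no share over all miRNAs stands beside these counts. The 5 members not placed included 2 detected ones, miR-548aa and miR-548v.

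Both arms were on the array for 20 names. In 6 of these only the 5p arm was called detected, in 2 only the 3p arm, in 12 neither, and in 0 both. Over the 790 other names with both arms on the array, both were detected in 232 (29.4%), only 5p in 157 (19.9%), only 3p in 120 (15.2%) and neither in 281 (35.6%). For miR-548d, miR-548am, miR-548ay and miR-548ad, 20 of 20 spots of the 5p arm and 0 of 20 spots of the 3p arm were well above background. The same held with fewer spots for miR-548au and miR-548j, at 6 and 2 spots on the 5p arm and 0 on the 3p arm.

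Among names with a detected arm, the order was turned for 2. In miR-548e, 14 spots of the 3p arm and 0 of the 5p arm were above background. In miR-548b it was 7 spots of the 3p arm and 2 of the 5p arm, and miR-548b-5p missed detection with its best probe at 2.53 times its error. Over the 8 undetected partner arms, 2 of 160 spots were above background, both of miR-548b-5p, which kept 1 when outlier spots were left out. The best probe of miR-548d-3p lay at 2.31 times its error, and among the other 6 no probe reached 1. The 2 arms of a name are read by different probes, so the counts say which arm was measurable and not how the amounts compare.

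**Figure D3:**
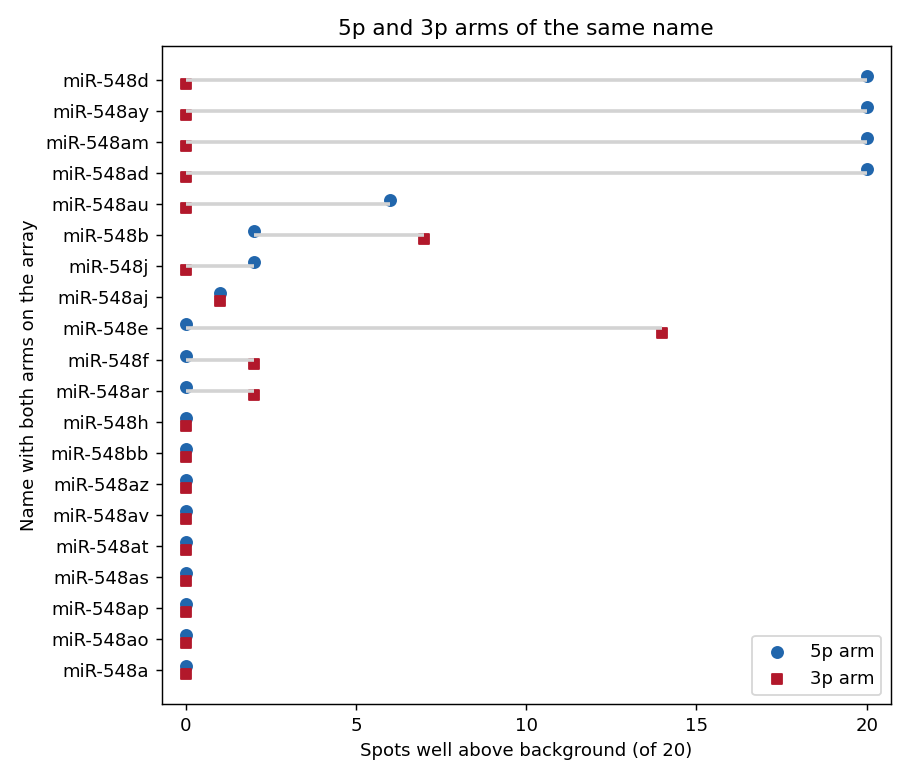
Number of spots well above background, of 20, for the 5p arm (blue circles) and the 3p arm (red squares) of the 20 miR-548 names with both arms on the si-NC array. In 4 names the 5p arm has 20 such spots and the 3p arm 0. Of the names with a detected arm, miR-548e and miR-548b have more on the 3p arm (14 and 7). So do miR-548ar and miR-548f, with neither arm detected, at 2 spots on the 3p arm and 0 on the 5p arm.

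The 59 undetected members were mostly far from the limit. Of these, 47 had no spot well above background, 9 had 1 and 3 had 2 (miR-548ar-3p, miR-548b-5p and miR-548f-3p). Members with no such spot made up 67.1% of the family, against 45.4% of all miRNAs. These counts include outlier spots. Without those, no probe of miR-548ar-3p or miR-548f-3p had a spot above background. In all, 15 of their 1180 spots were above background (1.27%, outlier spots included), beside 1.40% of negative control spots. These members were called undetected for low signal over error, so a low share follows in part from that call. The highest ratio of probe signal to error among them was 2.67, for miR-548a-5p, and the lowest among detected members was 4.28, for miR-548j-5p, on either side of the limit of 3. The median of the best ratio over undetected members was -0.226, and for 50 of the 59 it was under 1. The probe of miR-548a-5p with the highest mean reached 7.26 ± 1.91 (SD, 5 spots). For these members the array gives an upper bound on a measurable signal and not an absence.

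**Figure D4:**
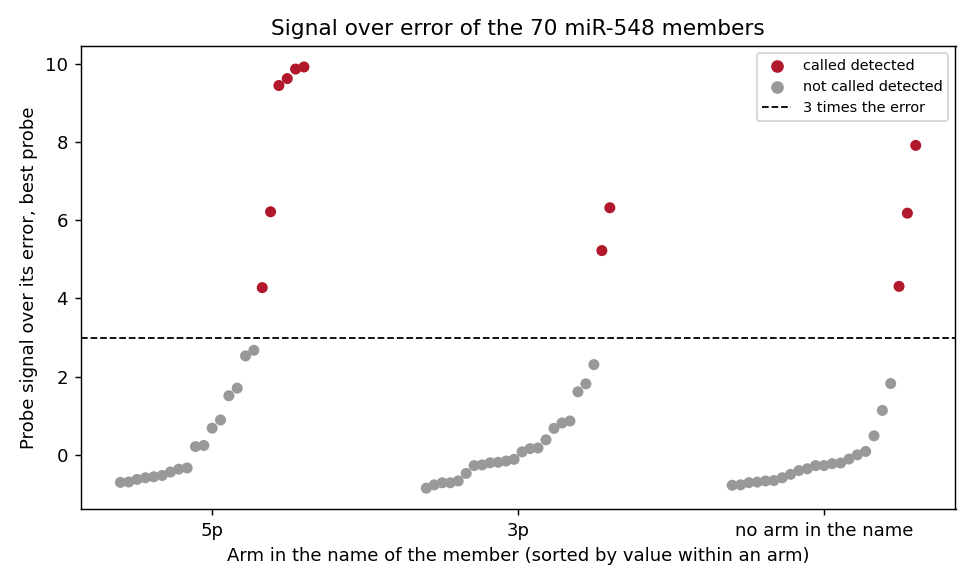
Signal over error of the best probe (vertical axis, no unit) for the 70 members by the arm in the name, sorted by value within each arm. Red points are the 11 members called detected, grey points the other 59, and the dashed line marks 3 times the error. A gap between 2.67 and 4.28 separates the undetected from the detected members.

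The 49 sequences matched in RefSeq held 28 seeds, of which 8 were shared by 2 or more of these members. For 6 of these 8 no member with a sequence was detected. The other 2 had 1 such detected member each, miR-548j-5p and miR-548k, with 2 and 3 of 20 spots above background. Both are lost under the rule on 50% of the spots of 1 probe and under that on negative controls. Among the 49, these rules leave 0 detected members with a shared seed. This does not hold for the family as a whole, since only 3 of the 11 detected members had a sequence. The seeds of miR-548d-5p, miR-548am-5p, miR-548ay-5p, miR-548ad-5p and miR-548aa, which had every spot above background, were not read. The most frequent seed, AAAGUAA, was shared by 11 of the 49, all on the 5p side. Members without a matched sequence, the brightest ones among them, could not be counted for any seed. Of these 11 only miR-548j-5p was called detected, and 8 of their 220 spots were above background, outlier spots included. Sequences in this group differed from each other by 3 to 7 single-base changes, insertions or deletions, with a median of 4. The seed AAAAACU was shared by 5 of the 49, all 3p, and none of these was detected. The seed AAAGUAC was shared by miR-548k and miR-548av-5p. The 18 bases of miR-548av-5p, printed above, are the first 18 of miR-548k, and they had 0 and 3 of 20 spots above background. In the same way miR-548ap-5p had 0 and miR-548j-5p 2. The probes that counted for miR-548k and miR-548j-5p had means of 12.5 and 12.4, under the negative control percentile of 16.1. These small differences therefore lie near the floor. Whether a probe of one member also binds its near-identical relatives was not tested.

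Outside the family, miR-559 was the 1 detected miRNA that shared a seed with a detected member of matched sequence (AAAGUAA, as in miR-548j-5p). Its total gene signal was 1.96 ± 0.366, with 1 of 20 spots above background. The related hairpins miR-570, miR-579 and miR-603, also placed with MADE1, were read with the family. The total gene signal of miR-570-3p was 12.5 ± 0.875, with 16 of 20 spots above background and 3 of 4 probes past 3 times their error. For miR-579-3p it was 9.38 ± 0.692, with 19 of 20 spots and 4 of 4 probes. Neither miR-579-5p nor miR-603 was detected, with 0 of 20 spots each.

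The table of processed values, on a log2 scale after quantile normalization, kept members with higher total gene signals apart and merged those with the lowest. Its values were 6.02 for miR-548d-5p, 5.49 for miR-548am-5p, 4.64 for miR-548ay-5p, 4.48 for miR-548ad-5p and 3.26 for miR-548aa. Those of miR-548v and miR-548e-3p were 2.52 and 2.40, close to the lowest value of the table, 2.32. The other 4 detected members, miR-548b-3p, miR-548au-5p, miR-548k and miR-548j-5p, shared a value within 0.01 of that floor, where all 59 undetected members lay, so the processed table holds no order among them.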

How the data were processed

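Per the labels, miRNA was labelled with Cyanine 3-pCp (label Cy3), while the study's methods describe labelling of cDNA. Per the file headers, Feature Extraction 11.0.1.1 read the intensity of each spot, and hg19 was the build of the array design. The deposited file holds background-subtracted intensity per spot, not normalized between arrays, with flags and a total gene signal, set to 0.1 for undetected miRNAs. The authors also deposited log2 values, quantile normalized in GeneSpring, whose scale and floor were found from the values. Of its sample columns 0 were left out.

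Control spots and outlier spots (4.29% of the family's) were left out of means, SDs and CVs, while counts of spots above background used all 20. Relative signals are log2 of the mean of the brightest probe minus log2 of a reference, the 75th percentile of spot intensity among detected miRNAs. Python 3.11.15, numpy 2.4.6, pandas 2.3.3, matplotlib 3.10.9, R 4.3.3 and limma 3.58.1 (normexp, offset 50) were used. On simulated spots of 5893 probes a CV of 10.0% came back as 9.48%. Named members were all detected ones, both arms of their hairpins, the 3 largest differences between probes, and undetected members with the most spots above background (9 tied at 1 spot, of which none was named for it). Other members named, such as miR-548a-5p, were chosen after their values were seen. The family, lists and rules were chosen with earlier results of these data known. With 1 array, depth is given by signal over background.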

Additional observations from a re-analysis of the deposited data

How the results depend on the processing

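Over 18 results 60 alternative values were computed, of which 20 stayed within their limits and 40 moved, 31 of the latter being relative signals of single members. The 11 detected members became 9 under the rules on spots of 1 probe and on negative controls and 13 with miR-570, miR-579 and miR-603 counted too, and they moved to 6 with every probe above background and 7 at a signal of 5 or more. Under these last 2 rules the 2 detected 3p members moved to 1, while the 6 detected 5p members were 4. Both rules can only take members away. The count of names with both arms detected was 0 under every detection rule, and members with 2 or more probes above background were 6, or 5 at 75% of spots. The median relative signal of detected members, -2.74 on the log2 scale, moved to -0.30 when the reference was taken over every miRNA spot and so was lower, to -1.33 after normexp and to -3.31 with deposited values, and the cause of the last 2 was not tested. The median CV, 7.99%, moved to 3.41% after normexp and to 34.0% when dim probes were kept as long as their mean was positive. Signal over background limits the dim members, whose errors reached 23.4%. Replicates and slides could not be left out or blocked, since there was 1 array.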
